A study of Mus musculus with 8 samples.

Results

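The nuclear genes of the mitochondrial respiratory chain were followed across 8 RNA sequencing libraries of mouse Achilles tendon, 4 from injured and 4 from sham-operated tendons of wild-type C57BL/6J mice. In the injured tendons an ear punch 1.5 mm wide, set at the lateral edge of the right Achilles tendon, had removed a semicircle of 0.75 mm. Sham libraries are marked by their titles alone, since the labels give all 8 libraries the same account of the operation. In both groups tendon and soleus muscle were parted before RNA extraction. The labels give neither the time after the operation, nor the age of the mice, nor whether each library came from its own animal, and the p-values below therefore cover no more than the variation among these 8 samples, part of which may be technical. Values are the authors' normalised read counts per gene, rounded to whole numbers. Genes were taken by symbol: the Nduf, Cox4 to Cox8, Uqcr and Atp5 families, Sdha to Sdhd and Cyc1, without rows marked -ps. This gave 92 genes among 15747 genes with values. A further 7 rows with fitting symbols had no value in any library: Cox6c2, Cox7b2, Cox8c, Ndufa11b, Ndufb4c, Ndufs6b and a second Atp5o entry.

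The respiratory chain of the inner mitochondrial membrane passes electrons from NADH (complex I) or succinate (complex II) through complex III and cytochrome c to oxygen at complex IV, and complex V, the ATP synthase, makes ATP from the proton gradient that results. Most subunits are encoded in the nucleus. The rest are encoded in the mitochondrial genome, and no gene with its symbol prefix (mt-) was listed among the deposited values. Complexes I, III and IV pump protons, while complex II, which is also the succinate dehydrogenase of the citric acid cycle, does not. Skeletal muscle is rich in mitochondria, and tendon has few of them. Several complex IV subunits exist as a form found in heart and skeletal muscle and a form found in most tissues.

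The labelled tissue was checked against its markers. All 10 tendon markers had values, among them Tnmd, encoding tenomodulin, with 21442 to 26504 normalised read counts in injury and 4354 to 6443 in sham libraries. Together the 10 took 15.5 to 17.7% of all normalised counts in injury and 4.31 to 8.64% in sham libraries. In the fit described below 7 of them were higher after injury and 3 did not pass, where 28.5% of all genes were higher. RNA of other cell types was also present. A list of 33 skeletal muscle genes that holds none of the 92 genes took 0.437 to 2.7% of all normalised counts in the injury libraries and 7.86 to 13.4% in the sham libraries, and all 33 were lower after injury. None of the 33 was at 0 in any library, the lowest value being 173. Total normalised counts were 14568669 to 16263086 in the injury and 13596488 to 15545903 in the sham libraries. In tissue RNA, fewer cells of a type and less RNA per cell cannot be told apart.

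Respiratory chain RNA was lower in injured tendon in every complex. Of the 92 genes, 87 fell, none rose and 5 did not pass, in a limma fit of log2(value + 1) over all genes with Benjamini-Hochberg adjusted p under 0.05, where 31.3% of all 15747 genes tested were called lower and 28.5% higher, 59.7% together. The fall was at least 2-fold for 80 of them, against 13.2% of all genes. The median log2 fold change was -1.72 over the 92 genes and -0.021 over all genes tested. For 87 of the 92 every injury library lay below every sham library, as was the case for 28.9% of all genes. Together the 92 genes took 0.455, 0.479, 0.595 and 0.742% of all normalised counts in injury replicates 1 to 4, against 1.95, 1.81, 1.82 and 2.37% in sham replicates 1 to 4.

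**Figure D1:**
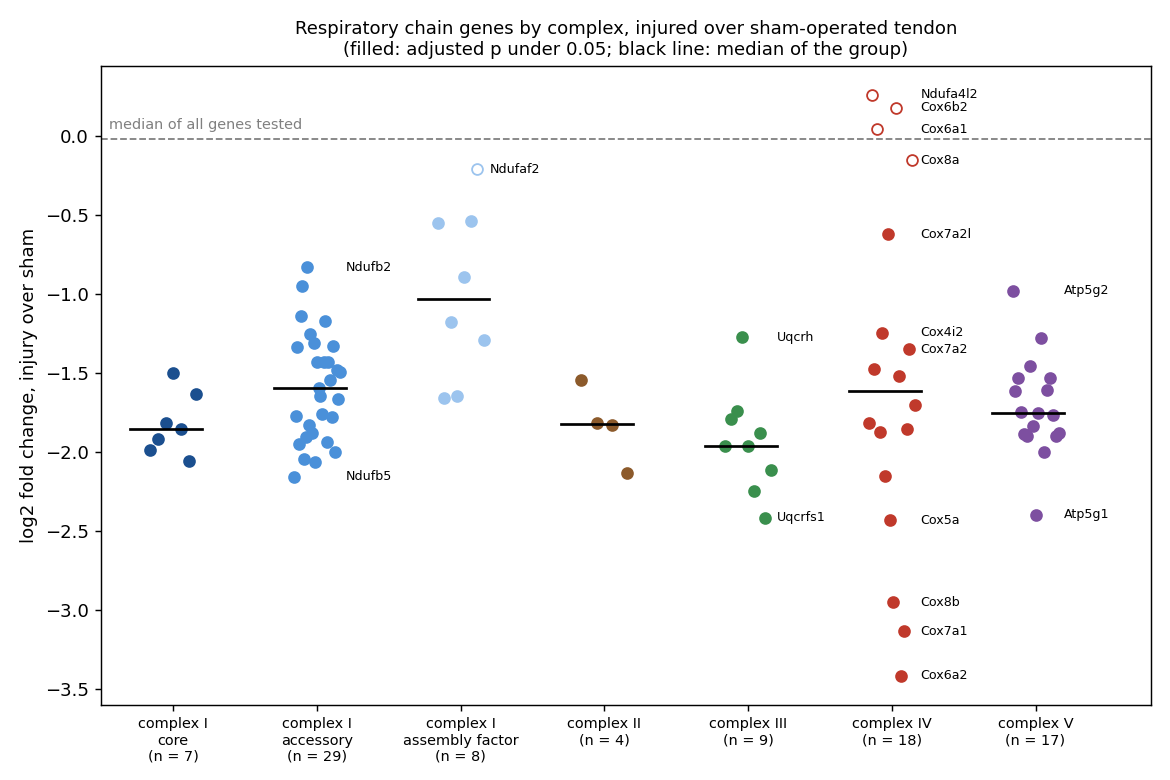
Log2 fold change, injured over sham-operated tendon, (vertical axis) of the 92 respiratory chain genes by complex and role (horizontal axis); each point is 1 gene, filled where the limma adjusted p is under 0.05, black lines are group medians and the dashed line is the median of all genes tested. All genes apart from Ndufa4l2, Cox6b2 and Cox6a1 lie below the dashed line, and complex IV spans the widest range, -3.41 to 0.26.

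Complex I takes electrons from NADH through a core of subunits that carry flavin and iron-sulphur clusters, and a larger set of accessory subunits surrounds this core. All 7 measured nuclear core genes fell (median log2 fold change -1.86). The largest core fall was that of Ndufs7, which holds the last iron-sulphur cluster before ubiquinone, with 472, 537, 633 and 826 in injury and 2508, 2312, 2225 and 3091 in sham libraries (log2 fold change -2.06, SE 0.17, limma adjusted p = 2.06e-05). Ndufs8, also an iron-sulphur subunit, had the smallest fall of the core, 2.83-fold.

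All 29 measured accessory genes of complex I fell too, with a median log2 fold change of -1.60 and a range of -2.16 to -0.83. Ndufb5, of the membrane arm, marked the low end with 599, 632, 904 and 1189 in injury and 3360, 3245, 3256 and 4555 in sham libraries. Its exons overlap those of Mrpl47 on the other strand, and whether the counting used strand is not given in the sources used here. The high end was Ndufb2, with 120, 129, 140 and 135 in injury and 216, 245, 230 and 244 in sham libraries (adjusted p = 5.85e-05 in limma). Even there the groups did not overlap, and its exons share bases with Braf on the other strand. Of the 92 genes, 27 share exon bases with another tested gene, and among the other 65 the counts were similar, with 61 lower and a median of -1.74.

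The assembly factors of complex I help build the complex and are not part of the finished enzyme. Of 8 measured, 7 fell, with a median log2 fold change of -1.03, the nearest to 0 of any group, and 4 were at least 2-fold lower. Ndufaf4 had 161, 168, 185 and 237 in injury and 413, 431, 422 and 575 in sham libraries (2.45-fold lower). Ndufaf6 fell the most, with 30, 38, 37 and 69 against 128, 121, 104 and 193 (log2 fold change -1.66, adjusted p = 0.000703 in limma). Ndufaf2, which binds a late assembly intermediate, was the one that did not pass, with 92, 111, 102 and 134 in injury and 120, 131, 107 and 150 in sham libraries. Its groups overlapped, and the log2 fold change was -0.21 (95% interval -0.54 to 0.12, adjusted p = 0.242 in limma). The gap between assembly factors and core subunits was not tested.

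Complex II is made wholly of nuclear subunits, and its 4 genes all fell (median log2 fold change -1.82). Sdha, the flavin subunit, had 1598, 1693, 2223 and 3184 normalised read counts in injury and 7563, 6832, 6231 and 9583 in sham libraries, 3.56-fold lower. Sdhb, the iron-sulphur subunit, fell furthest with 807, 1022, 1238 and 1931 against 5219, 4534, 4466 and 6933 (log2 fold change -2.13, SE 0.25, limma adjusted p = 0.000114), and Sdhd, a membrane anchor, fell least at 2.91-fold. None of these genes had overlapping groups.

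Complex III hands electrons to cytochrome c, and its 9 genes fell with the lowest median of any complex, -1.96. Uqcrfs1, the Rieske iron-sulphur protein, had 597, 697, 1002 and 1583 in injury libraries against 4620, 4629, 3995 and 6267 in sham libraries, 5.33-fold lower (log2 fold change -2.41, SE 0.28, limma adjusted p = 0.000105). Cyc1, cytochrome c1 and also a catalytic subunit, was chosen after its values were seen and was 4.75-fold lower. Uqcrc1, a core protein, had 1145, 1340, 1943 and 2713 against 7175, 7014, 6028 and 9329, and Uqcrh, the hinge protein, fell least (2.42-fold). Cycs, which encodes cytochrome c itself, the electron carrier between complexes III and IV, was chosen after its values were seen and fell 5.46-fold, to 263, 335, 507 and 846 in injury libraries, against 2292, 2229, 1976 and 3363 in sham libraries.

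Complex V took 0.152 to 0.262% of all counts in injury and 0.641 to 0.868% in sham libraries, and all 17 of its genes fell (median log2 fold change -1.76). Atp5b, the catalytic beta subunit, had 5113, 6082, 8252 and 11453 normalised read counts in injury and 27338, 25244, 22229 and 37264 in sham libraries, 3.73-fold lower (adjusted p = 0.000252 in limma). The c subunit that forms the rotor ring is encoded by 3 genes that yield the same mature protein, and these differed in the size of their fall. Atp5g1 had 396, 484, 642 and 941 in injury and 2965, 3077, 2507 and 3928 in sham libraries, 5.27-fold lower. Atp5g3, named because it completes the trio, had 1363, 1407, 1841 and 2720 in injury and 6764, 6569, 6052 and 9221 in sham libraries, 4.01-fold lower. Atp5g2 had 475, 589, 588 and 677 in injury and 1060, 1112, 1016 and 1419 in sham libraries, 1.97-fold lower. Atp5g1 was thus the lowest and Atp5g2 the highest fold change of complex V, and the difference between them was not tested.

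Complex IV, cytochrome c oxidase, reduces oxygen to water and was the complex with the widest range of fold changes. Of 18 genes, with Ndufa4 counted here because its product is a complex IV subunit, 14 fell and 4 did not pass (median log2 fold change -1.61). The 3 largest falls of all 92 genes were those of the muscle isoforms Cox6a2, Cox7a1 and Cox8b, and the genes that did not pass were Cox6a1, Cox8a, Cox6b2 and Ndufa4l2. Without the 3 muscle isoforms the median of complex IV was -1.47. Cox7a2l, counted here as a factor of supercomplexes of complexes III and IV, was chosen after its values were seen. It fell 1.54-fold, to 986, 854, 882 and 978 in injury libraries, against 1457, 1386, 1311 and 1552 in sham libraries (adjusted p = 0.000153 in limma).

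The muscle and ubiquitous isoforms of 3 subunits lie at separate loci. In GENCODE M21 (GRCm38), Cox6a2 is at chr7:128205435-128206387 and Cox6a1 at chr5:115345642-115348981, both on the reverse strand. Cox7a1 is at chr7:30184144-30186078 on the forward strand and Cox7a2 at chr9:79755361-79759878 on the reverse strand. Cox8b is at chr7:140898945-140900446 and Cox8a at chr19:7215153-7217616, both on the reverse strand. All 6 are protein-coding, and none shares exon bases with another tested gene.

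The stretches before the starts of 5 of these 6 genes, all but Cox6a2, are printed because the pairs carry the sharpest contrast among the 92 genes. Each is the 250 bases before the gene's start in RefSeq (GRCm38.p6), 5′ to 3′ on the gene's strand, for Cox7a1 (chr7:30183921-30184170, forward strand) and for Cox7a2 (chr9:79759854-79760103), Cox8b (chr7:140900447-140900696), Cox8a (chr19:7217617-7217866) and Cox6a1 (chr5:115348959-115349208), all on the reverse strand. RefSeq and GENCODE place the starts of some of these genes slightly apart. Capitals mark matches, on either strand, to the letters searched: GCGCA, any base and GCGC for the factor NRF1, CCGGAAG for ETS factors such as GABPA, TNAAGGTCA for oestrogen-related receptors, CTA, 4 bases of any kind and TAG for MEF2, and CAGCTG, an E-box. No matches overlap here.
Cox7a1: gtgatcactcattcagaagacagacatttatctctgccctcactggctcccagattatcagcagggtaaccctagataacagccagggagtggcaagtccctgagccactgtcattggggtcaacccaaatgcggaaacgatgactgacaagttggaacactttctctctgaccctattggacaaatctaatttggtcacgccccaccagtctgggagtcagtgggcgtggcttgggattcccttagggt
Cox7a2: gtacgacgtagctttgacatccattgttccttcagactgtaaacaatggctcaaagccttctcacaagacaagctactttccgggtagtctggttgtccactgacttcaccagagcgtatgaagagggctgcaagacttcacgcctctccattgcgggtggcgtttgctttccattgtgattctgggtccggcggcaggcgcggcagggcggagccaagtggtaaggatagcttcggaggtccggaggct
Cox8b: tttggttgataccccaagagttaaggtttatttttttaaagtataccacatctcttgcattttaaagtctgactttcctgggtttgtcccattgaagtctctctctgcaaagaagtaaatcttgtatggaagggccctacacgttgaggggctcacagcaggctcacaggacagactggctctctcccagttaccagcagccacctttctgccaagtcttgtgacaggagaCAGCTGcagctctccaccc
Cox8a: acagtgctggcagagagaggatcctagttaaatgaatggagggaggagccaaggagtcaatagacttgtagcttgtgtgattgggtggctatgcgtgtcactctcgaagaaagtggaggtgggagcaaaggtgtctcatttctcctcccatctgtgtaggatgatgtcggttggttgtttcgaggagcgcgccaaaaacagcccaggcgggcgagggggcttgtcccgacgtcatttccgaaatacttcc
Cox6a1: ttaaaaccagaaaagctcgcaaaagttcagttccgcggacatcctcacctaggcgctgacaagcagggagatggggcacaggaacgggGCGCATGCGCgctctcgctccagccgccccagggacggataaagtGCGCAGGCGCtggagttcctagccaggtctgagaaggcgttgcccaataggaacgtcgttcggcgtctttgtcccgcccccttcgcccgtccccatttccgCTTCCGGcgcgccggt

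The Cox6a1 window held the NRF1 letters at 162 and 117 bases and the ETS letters at 16 bases before the start, the Cox8b window held an E-box at 19 bases, and the other 3 windows held none of the letters. RefSeq windows were at hand for 75 of the 92 genes. The NRF1 letters occurred in 13 of them (17.3%), against 7.77% of 11324 genes with values and 3.86% of all 27025 windows. The ETS letters occurred in 17.3% of the 75 windows, 12.8% of genes with values and 7.05% of all windows. For the receptor letters the shares were 2.67, 0.627 and 1.14%, for the MEF2 letters 1.33, 2.82 and 3.23%, and for the E-box 8, 12.2 and 12.8%, in the same order. These are matches of letters and not binding sites, and median GC content was 57.6% in the 75 windows and 59.6% in those of genes with values.

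Cox6a2, the heart and muscle form of subunit VIa, had 220, 605, 1218 and 1665 normalised read counts in injury replicates 1 to 4, against 7531, 6597, 6891 and 10258 in sham replicates 1 to 4. The 4 injury libraries spread 7.57-fold and all lay far below sham (log2 fold change -3.41, SE 0.54, limma adjusted p = 0.000564, 10.7-fold lower). Cox6a1, the form of most tissues, had 1282, 1241, 1226 and 1265 in injury and 1334, 1232, 1256 and 1071 in sham libraries. Its groups overlapped and averaged 1254 ± 24.9 and 1223 ± 110.4 (SD, n = 4 each), with a log2 fold change of 0.04 (95% interval -0.13 to 0.21, adjusted p = 0.671 in limma). The sign of this small difference turned with equal library totals and without sham replicate 4. It also turned in the fits described further on, with a muscle covariate and with 3 muscle-rich libraries left out. Per kilobase of exon, the level of Cox6a2 was 0.177 to 1.36 times that of Cox6a1 in injury libraries and 5.53 to 9.89 times in sham libraries.

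Subunit VIIa showed the contrast in a weaker form, since its ubiquitous isoform fell as well. Cox7a1, the muscle form, had 75, 211, 342 and 595 in injury and 1943, 1871, 1851 and 2896 in sham libraries (log2 fold change -3.13, SE 0.53, limma adjusted p = 0.00082). Cox7a2 had 576, 552, 666 and 876 in injury and 1637, 1500, 1521 and 2116 in sham libraries, 2.55-fold lower (adjusted p = 0.00012 in limma). Neither gene had overlapping groups. Per kilobase of exon, Cox7a1 stood at 0.23 to 1.2 times the level of Cox7a2 after injury and 2.09 to 2.41 times in sham.

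Subunit VIII followed subunit VIa. Cox8b, its muscle form and in mouse also known from brown fat, had 153, 329, 539 and 892 in injury and 2890, 2616, 2904 and 3989 in sham libraries (log2 fold change -2.95, SE 0.45, limma adjusted p = 0.000485). Cox8a, the ubiquitous form, had 1369, 1293, 1131 and 1235 in injury and 1453, 1466, 1368 and 1304 in sham libraries. Here the ranges met, since injury replicate 1 lay above sham replicate 4, and the difference did not pass (log2 fold change -0.15, 95% interval -0.33 to 0.017, adjusted p = 0.108 in limma). Over the alternatives described further on, Cox8a stayed below 0 at -0.38 to -0.10. It never passed, with adjusted p-values of 0.0593 to 0.324 in limma. Per kilobase of exon, the level of Cox8b was 0.192 to 1.24 times that of Cox8a in injury and 3.07 to 5.26 times in sham libraries.

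**Figure D2:**
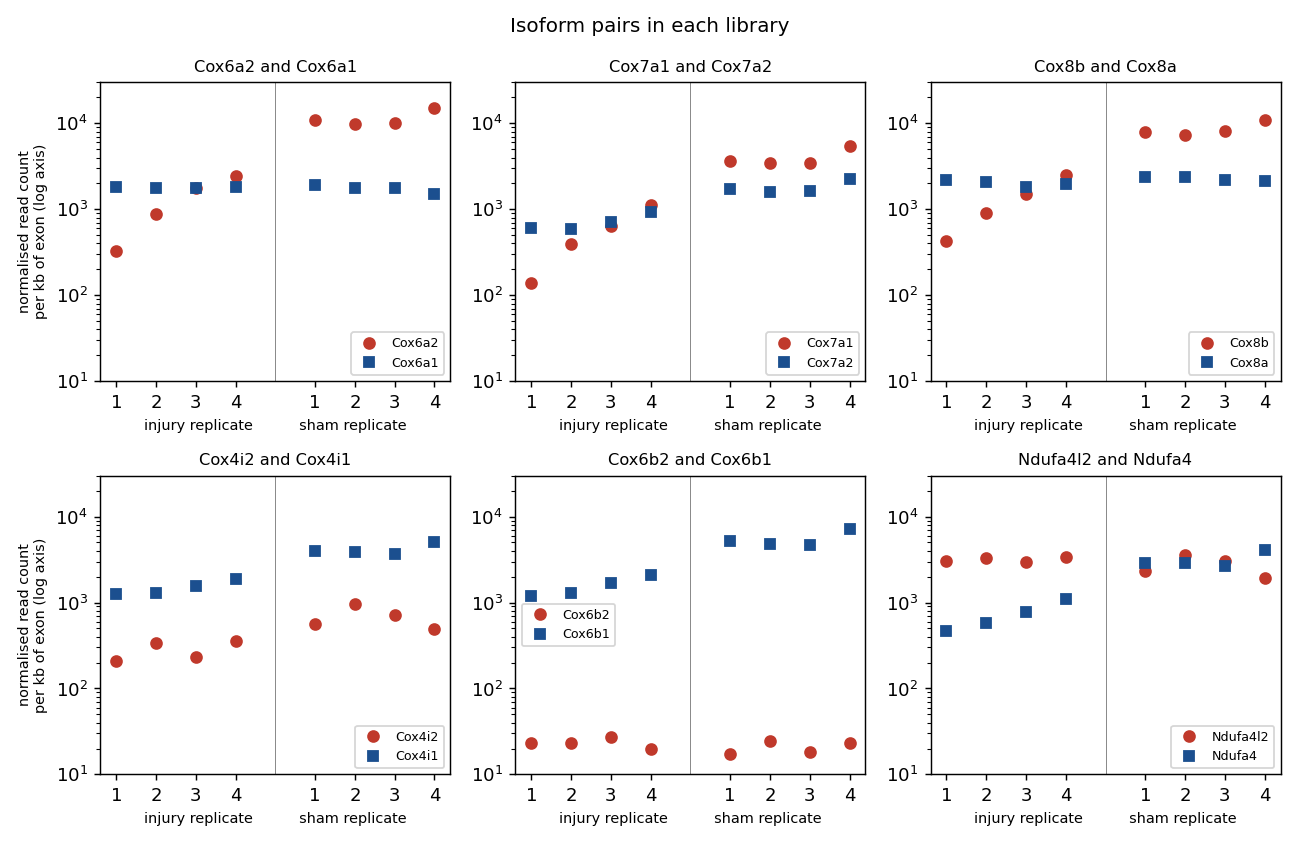
Normalised read count per kilobase of exon (log axis) of both genes of 6 isoform pairs in each injury and each sham library; each point is 1 library. Cox6a1 and Cox8a stay near one level across all 8 libraries, with mean levels per kilobase of 1786 and 2031 in injury and 1743 and 2258 in sham libraries, while Cox6a2, Cox7a1 and Cox8b are lower in every injury library than in any sham library.

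The shift within each pair was tested on the log2 ratio of the 2 genes in each library, which does not depend on library scaling beyond the pseudocount. The muscle to ubiquitous ratio was 11-fold lower after injury for Cox6a2 over Cox6a1, 3.44-fold lower for Cox7a1 over Cox7a2 and 6.95-fold lower for Cox8b over Cox8a. The mean log2 ratios were -0.80 ± 1.31 in injury and 2.66 ± 0.40 in sham libraries for the first pair (SD, n = 4 each). For each of the 3 pairs all injury ratios lay below all sham ratios, and p was 0.0286 (two-sided, by exact permutation of the 8 libraries), the lowest value possible with 4 libraries a group, or 0.0343 after Benjamini-Hochberg adjustment over the 6 pairs examined.

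In 3 further pairs one gene is a form known for narrow expression. Ndufa4l2, a relative of the complex IV subunit gene Ndufa4 that is known as a hypoxia-induced gene and from pericytes, had 3323, 3654, 3201 and 3663 in injury and 2567, 3922, 3307 and 2087 in sham libraries. The ranges overlapped (log2 fold change 0.26, 95% interval -0.14 to 0.66, adjusted p = 0.233 in limma), but without sham replicate 2 the gene passed as higher (log2 fold change 0.41, adjusted p = 0.0479 in limma), with adjusted p-values of 0.0479 to 0.885 over its alternatives. It shares 32 exon bases with Shmt2 on the other strand. Ndufa4 itself had 639, 799, 1064 and 1529 in injury and 3965, 3940, 3673 and 5702 in sham libraries, 4.45-fold lower. The ratio of Ndufa4l2 to Ndufa4 was 5.33-fold higher after injury (exact permutation p = 0.0286, adjusted 0.0343), at 3.02 to 6.56 per kilobase in injury and 0.462 to 1.26 in sham libraries. The 12 pericyte and smooth muscle markers took 0.136 to 0.233% of counts in injury and 0.398 to 0.527% in sham libraries. Of these markers 2 were higher and 6 lower, where 28.5% of all genes were higher and 31.3% lower. Des, in this list, is also in the skeletal muscle list. With the muscle covariate described further on, 2 of the 12 were higher and none lower. In that fit 13.8% of all genes were higher and 10.4% lower. The median log2 fold change of the 12 was then 0.36, against -0.55 without the covariate. The part of these markers in the values of Ndufa4l2 was not tested.

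Cox4i2, the oxygen-responsive isoform of subunit IV, had 166, 270, 183 and 282 in injury and 447, 756, 563 and 390 in sham libraries, 2.37-fold lower (adjusted p = 0.00161 in limma), and Cox4i1, the common isoform, had 1954, 1976, 2441 and 2876 against 6098, 5971, 5633 and 7863, 2.78-fold lower. Cox4i1 shares exon bases with Emc8 on the other strand. Both isoforms fell, and their log2 ratio differed by 0.23 with overlapping groups (exact permutation p = 0.514), turning to -0.017 without sham replicate 4. Cox6b2, the testis form of subunit VIb, was low, with 26, 26, 30 and 22 in injury and 19, 27, 20 and 26 in sham libraries and did not pass (adjusted p = 0.444 in limma). Cox6b1 had 853, 903, 1185 and 1464 against 3654, 3439, 3290 and 5025, 3.53-fold lower, so the ratio of Cox6b2 to Cox6b1 was 3.99-fold higher after injury (exact permutation p = 0.0286, adjusted 0.0343), where Cox6b1 passed the test and Cox6b2 did not.

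Skeletal muscle RNA moved with the respiratory chain genes across libraries as well as between groups. Sham replicate 4, with 13.4% of its counts in the muscle markers, was the highest sham library for 85 of the 92 genes. Among injury libraries, replicate 4 (2.7% in muscle markers) was the highest for 85 genes and replicate 1 (0.437%) the lowest for 81. The size of these swings differed between genes. The highest injury library exceeded the lowest by a median of 1.74-fold over the 92 genes and 7.01-fold over the 33 muscle markers, and by 7.57-fold for Cox6a2, 7.93-fold for Cox7a1 and 5.83-fold for Cox8b. The summed share of the 92 genes was 1.04, 0.596, 0.293 and 0.275 times that of the muscle markers in injury replicates 1 to 4, against 0.214, 0.203, 0.232 and 0.177 times in sham replicates 1 to 4.

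**Figure D3:**
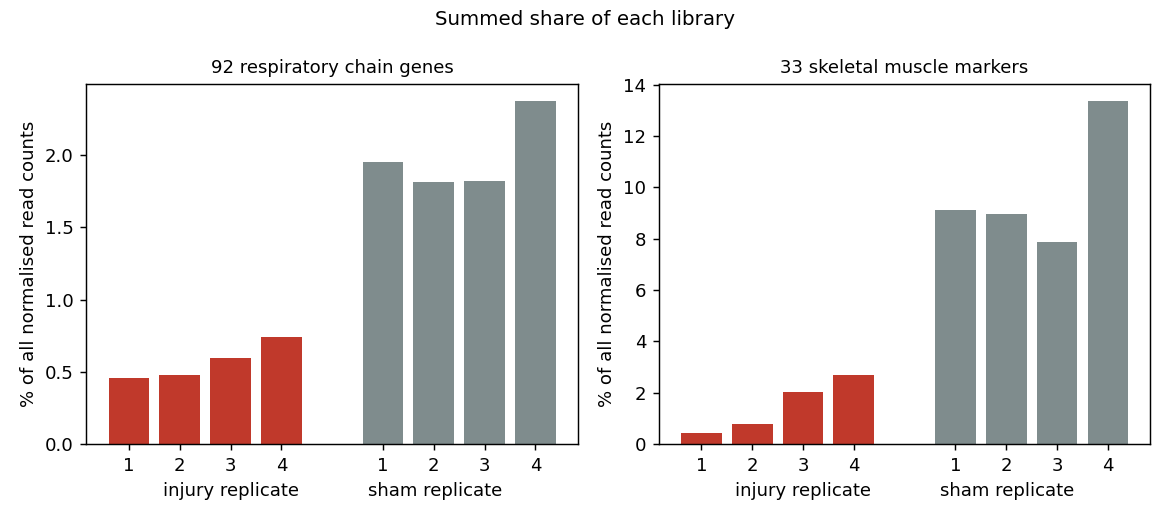
Share of all normalised read counts (percent, bars) taken by the 92 respiratory chain genes and by the 33 skeletal muscle markers in each of the 4 injury and 4 sham libraries. Both sets are lower in every injury library, at 0.455 to 0.742% against 1.81 to 2.37% for the respiratory chain genes, and sham replicate 4 is the highest for both.

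A fit with the mean log2 value of the muscle markers as a covariate gave smaller falls. With this muscle covariate 75 of the 92 genes were lower and none higher, against 10.4% of all genes called lower in that fit, and the median log2 fold change was -0.80, against -0.009 over all genes. The calls of all 3 muscle isoforms were lost, with log2 fold changes of -0.62 for Cox6a2 (adjusted p = 0.086 in limma), -0.40 for Cox7a1 (adjusted p = 0.272) and -0.61 for Cox8b (adjusted p = 0.0718). Of their ubiquitous partners, Cox7a2 kept its call at -0.68 (adjusted p = 0.0358 in limma), a larger fall than that of Cox7a1. Cox8a was at -0.38 (adjusted p = 0.0593 in limma) and Cox6a1 at -0.066, and neither passed. The isoform ratios were not tested with the covariate. Calls were kept by all 7 core genes of complex I, all 4 of complex II, all 9 of complex III and 15 of 17 of complex V. Of the accessory genes of complex I 28 of 29, of complex IV 10 of 18 and 2 of 8 assembly factors were called lower. Atp5g2 (-0.44, from -0.98 without the covariate) and Ndufaf6 (-0.56, from -1.66) lost their calls too. Cox4i2 lost its call with a log2 fold change of -1.04, against -1.25 without the covariate, while its SE was 0.46, against 0.24 (adjusted p = 0.131 in limma). Ndufaf2 turned to 0.28 without passing. Cox7a2l hardly moved, at -0.57 with and -0.62 without the covariate. Since the covariate itself differs between the groups, injury and muscle RNA cannot be told apart in full by this fit. The covariate also enters on the log scale, whereas RNA of muscle and of other cells adds up in counts. The falls and calls that remain are therefore no measure of RNA outside muscle, and their source was not tested. Without sham replicate 4 and injury replicates 3 and 4, the libraries with most muscle for their group, 87 genes were lower and the median was -1.85. The injury libraries kept, replicates 1 and 2, held 0.437 and 0.804% of counts in muscle markers. Sham replicates 1 to 3 held 9.11, 8.95 and 7.86%. The groups thus still differed in muscle RNA, and leaving these libraries out does not remove it from the comparison.

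**Figure D4:**
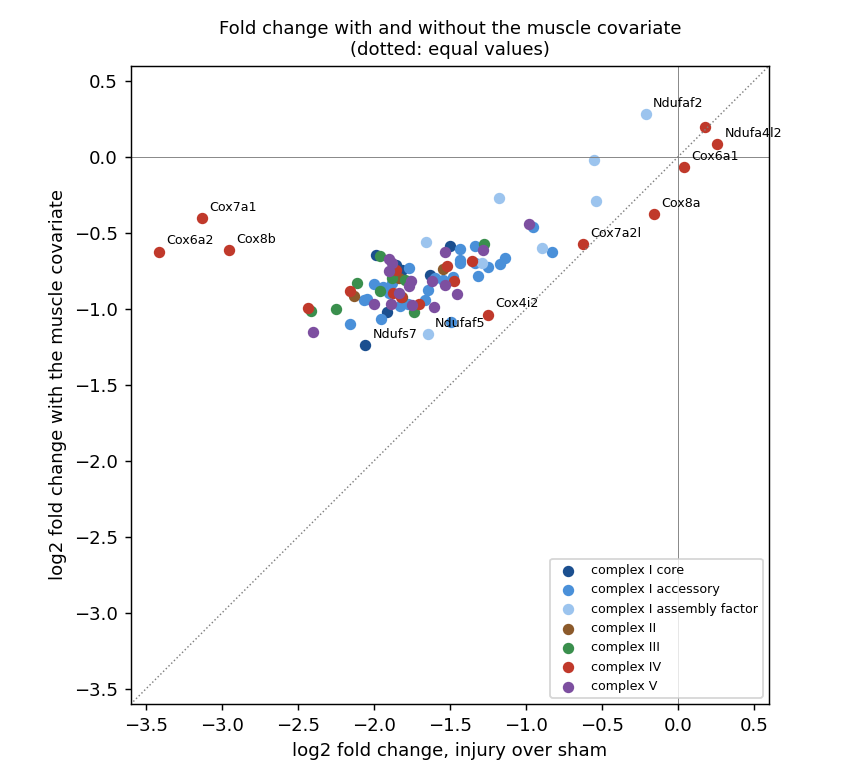
Log2 fold change, injured over sham-operated tendon, of the 92 genes without (horizontal axis) and with (vertical axis) the muscle covariate; each point is 1 gene coloured by complex, and the dotted line marks equal values. Most genes move toward 0 but stay below it, at a median of -0.80, Cox6a2, Cox7a1 and Cox8b move furthest, and Cox6a1 and Cox7a2l stay near the dotted line.

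Markers of other cell types moved with injury as well. All 10 adipocyte markers fell, where 31.3% of all genes were lower. They took 0.0326 to 0.0598% of counts in injury and 0.161 to 0.332% in sham libraries. With the muscle covariate 9 of the 10 were lower (median log2 fold change -2.08), where 10.4% of all genes were. Of 6 brown fat markers only Cidea, Dio2 and Ppara had values, of which Dio2 was higher after injury and the other two lower. Ucp1, the defining marker, had no value, and Cidea had 2, 10, 7 and 6 in injury and 44, 59, 47 and 42 in sham libraries. The 10 endothelial markers took 0.0616 to 0.0882% and 0.0987 to 0.135%, and the 10 macrophage markers 0.179 to 0.229% and 0.0798 to 0.128%, in injury and sham libraries. With the covariate 4 endothelial markers were lower and none higher, and 4 macrophage markers were higher and 1 lower. In that fit 13.8% of all genes were higher. The part of these cell types in the fall was not tested.

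Other genes of mitochondrial energy metabolism, from lists that do not overlap the 92, also had lower RNA. Of 32 measured genes for cytochrome c and for assembly of complexes III, IV and V, 29 fell, none rose, and Cox16, Sco1 and Sco2 did not pass (median log2 fold change -0.80). Uqcc1, an assembly factor of complex III, had 244, 254, 254 and 356 in injury and 702, 752, 666 and 987 in sham libraries, and Cox18, an inner membrane insertase for a complex IV subunit, had 117, 111, 101 and 105 against 184, 193, 186 and 190. All 12 further assembly factors of complexes I and II fell (median -0.81), among them Ecsit, of the complex I assembly complex (3.1-fold lower), and Foxred1 (1.77-fold lower). All 12 genes of protein import, the outer membrane and matrix chaperones fell (median -0.91). The smallest adjusted p-values there were those of the import genes Timm44 (2.06-fold lower) and Timm50 (1.85-fold lower). With the muscle covariate the medians of these 3 lists were -0.57, -0.59 and -0.57, and the counts of lower genes became 11, 4 and 6. Among all genes 31.3% were lower without the covariate and 10.4% with it.

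Most genes of a list of regulators of mitochondrial biogenesis, the making of mitochondria, had lower RNA as well. Of 16 measured, 11 fell, 1 rose and 4 did not pass, with a median log2 fold change of -0.76. Ppara, in this list, is also among the brown fat markers. Among all genes 31.3% were lower and 28.5% higher. With the muscle covariate the median was -0.50, and 3 were lower and 1 higher, where 10.4% of all genes were lower and 13.8% higher. The exons of Esrra and Pprc1 overlap those of Trmt112 and Ldb1 on the other strand. Esrra, encoding the oestrogen-related receptor alpha, had 328, 385, 405 and 471 in injury and 1039, 1220, 1086 and 1504 in sham libraries (log2 fold change -1.60, SE 0.14, limma adjusted p = 2.46e-05), and it was still lower with the covariate (-1.04, adjusted p = 0.00409 in limma). Tfam, whose product packages mitochondrial DNA and is needed for its transcription, had 273, 279, 305 and 320 against 530, 515, 492 and 633, 1.84-fold lower. Pprc1, a coactivator related to PGC-1, was the one that rose, with 569, 490, 607 and 654 in injury and 355, 381, 450 and 434 in sham libraries (log2 fold change 0.52, adjusted p = 0.00309 in limma).

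The next regulators were chosen after their values were seen. Ppargc1a, encoding the coactivator PGC-1 alpha, had 55, 68, 86 and 134 in injury and 251, 317, 195 and 426 in sham libraries, 3.49-fold lower, and its call was lost with the muscle covariate (-0.44, adjusted p = 0.356 in limma). Esrrg, a receptor related to Esrra, was 8.2-fold lower, with 25, 50, 88 and 149 in injury and 464, 441, 461 and 841 in sham libraries, and its call was lost with the covariate too (adjusted p = 0.111 in limma). Nrf1, encoding the factor whose letters were searched above, had 367, 356, 320 and 364 in injury and 333, 313, 315 and 308 in sham libraries and did not pass (95% interval of the log2 fold change -0.014 to 0.31, adjusted p = 0.104 in limma). Gabpa and Gabpb1, which encode the subunits of another such factor, and Ppard did not pass either. The exons of Gabpa overlap those of Atp5j on the other strand.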

How the data were processed

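Each deposited table gives a score for every gene: read counts normalised, per the file headers, and rounded to whole numbers by the authors, so that no count model was fitted. Per the submitters' processing notes, the authors' tools were edgeR 3.12, StringTie 1.3.5, STAR 2.7.6a and Trimmomatic 0.39, with mm9 and mm10 both listed as builds. How the counts were normalised, whether strand was used and how deep the libraries were is not given in the sources used here. The tables list 55450 genes, 39703 of them without values. limma 3.58.1 in R 4.3.3 was fitted to log2(value + 1) over all 15747 genes, with the prior variance following mean expression, the group as the only term and two-sided p-values adjusted by Benjamini-Hochberg (threshold 0.05). Requiring 1 or more in 4 libraries removed no gene. Fold changes on the log2(value + 1) scale understate those of low genes. Levels per kilobase divide by the union of annotated exons in GENCODE M21, where 99.9% of tested gene identifiers were found. Near-identical pseudogenes may share reads with these genes. Of 14 rows left out by their -ps symbols, 6 had values, of at most 682 apart from Ndufb1-ps. Ndufb1-ps had 390 to 579 in injury and 1175 to 1566 in sham libraries, and no other Ndufb1 row is among the genes followed here. Whether the rows left out are all pseudogenes was not examined. Named genes were those of the isoform pairs, the member with the highest mean value and both extremes of fold change in each group, and the 2 called genes with the smallest adjusted p per direction in each further list; 1 of the genes so chosen is not reported here. Members, lists and the library exclusions were chosen with earlier results of these data known, so no test over a list was made. The test was checked on simulated data with independent noise for each gene. That check does not cover variation shared between genes, such as that of muscle RNA. Plots were made in Python 3.11.15 (matplotlib 3.10.9).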

Additional observations from a re-analysis of the deposited data

Results flagged for a closer look

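In 18 genes sham replicate 4 stood apart as the highest sham library, its gap to the next library, as a share of the group's range, exceeding the 95% critical value of Dixon's test for 4 samples. On the log2(value + 1) scale these were Ndufa2 at 11.05, Ndufa3 at 10.48, Ndufb11 at 11.82, Ndufb5 at 12.15, Ndufb7 at 11.04, Ndufs6 at 10.59, Ndufv3 at 10.65, Ndufaf4 at 9.17, Uqcrb at 12.00, Cox5a at 12.85, Cox6c at 12.39, Cox7a1 at 11.50, Cox7b at 12.24, Atp5h at 12.13, Atp5j2 at 11.84, Atp5k at 11.79, Atp5l at 10.96 and Atp5o at 11.31. Injury replicate 4 stood apart in the same way for Ndufaf5 at 6.89 and Ndufaf7 at 7.61. The log2 ratio of Cox6a2 to Cox6a1 was highest in sham replicate 4 as well, at 3.26. In all, 21 of 196 groups were marked, where chance marks about 1 in 20, and genes of the same library are not independent. Sham replicate 4 held 13.4% of its counts in skeletal muscle markers, the most of any library, and the part of this in the values was not tested. Without sham replicate 4, 87 of the 92 genes were lower after injury, with a median log2 fold change of -1.61.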

How the results depend on the processing

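Over all alternatives apart from the muscle covariate (other scalings, pseudocount of 0.1, minimum mean of 50, no filter, a single prior variance, a replicate block, each library left out, the 3 muscle-rich libraries left out), the count of genes lower after injury was 87, and the median log2 fold change of the 92 genes lay between -1.87 and -1.61. Equal library totals moved the median of all genes to -0.11. With the muscle covariate the counts of lower genes became 2 for complex I assembly factors, 11 for cytochrome c and the assembly factors of complexes III to V, 4 for other assembly factors of complexes I and II, 3 for regulators and 6 for import genes. The count of genes higher was 0 to 1 when 1 library was left out. Cox6a1 turned to -0.052 with equal totals, -0.066 with the muscle covariate and -0.014 without the muscle-rich libraries, and ranged from -0.023 to 0.083 with 1 library left out. Ndufaf2 turned to 0.28 with the muscle covariate. The Cox4i2 to Cox4i1 log2 ratio difference ranged from -0.017 to 0.43 with 1 library left out. The cause of these changes was not tested. The labels do not say that a replicate number marks a shared animal or day. Deviations of same-numbered libraries correlated at 0.249, 0.284, -0.00957 and 0.493, against -0.434 to 0.256 for differently numbered ones. Since 1 pair was near 0, and injury replicates 1 and 3 and sham replicate 3 correlated best with another number, pairing was neither assumed nor dismissed. With the replicate block 87 of the 92 genes were lower, as without it, and over all genes 5107 were lower and 4635 higher, against 4921 and 4481 without it. Read depth is unknown, so the counting error of low genes such as Cox6b2 cannot be given. Of 92 genes, 91 reached the minimum mean of 50.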
